A study of Procambarus virginalis and Procambarus fallax with 9 samples.

Results

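Of the 21773 gene models of the marbled crayfish, Procambarus virginalis, 84 were expressed at a moderate level in the hepatopancreas and had no read assigned to them in any muscle library. They were chosen by their measured values. Their mean over the 3 hepatopancreas libraries was at least 5 and below 100 TPM, a unit of transcript abundance per gene length that is scaled to the same total in every library. The highest of the 3 values was less than 10 times the lowest, and the expected count, the number of fragments assigned to a gene, was 0 in all 6 libraries of abdominal musculature. Every library entered this choice, so the contrast between the tissues and the spread between the animals are described here and were not tested.

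RNA was sequenced from the hepatopancreas of P. virginalis animals 2, 6 and 7, and from their abdominal musculature. The marbled crayfish is clonal and breeds by parthenogenesis, and these animals came from the laboratory strain kept in Heidelberg. Abdominal musculature was also sequenced from animals 1, 3 and 4 of Procambarus fallax, the slough crayfish, a sexual species. These were females bought through an aquarium supplier. Neither ages nor treatments were stated, and hepatopancreas of P. fallax was not analysed here. Each library is 1 animal and 1 tissue, with n = 3 libraries per group. The sample labels name 3 animals per species, whereas the description of the series counts 6 and 2 individuals. Reads of P. fallax were assigned to the gene models of P. virginalis, and the libraries of P. virginalis animal 7 and of P. fallax were made of longer reads than those of animals 2 and 6.

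The hepatopancreas is the digestive gland of decapod crustaceans. It secretes digestive enzymes into the gut, takes up nutrients and stores lipid and glycogen. The abdominal musculature is made mostly of contractile fibres and drives the tail flip of the escape response. The files do not pair the annotation identifiers of genes with names, so no function is given for any gene below, and the tissues could not be checked against their marker genes.

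Total expected counts were 67369392, 15489449 and 12947418 in the hepatopancreas of animals 2, 6 and 7. They ranged from 6001494 to 18661368 in the 6 muscle libraries. One muscle library, that of P. fallax animal 3, stood apart. It was compared over 184 genes that had a mean of at least 100 TPM in the hepatopancreas, at least 10 TPM in each hepatopancreas library, and a median muscle level of at most 1% of that. The summed level of these genes was 1943 TPM in P. fallax animal 3, and between 73.0 and 239 TPM in the other 5 muscle libraries. As a share of their summed hepatopancreas level, this was 0.391% in animal 3 and at most 0.0481% elsewhere. In animal 3, 167 of the 184 genes had counts, against 66 to 124 in the other muscle libraries. This library also decided which genes were at 0, and the results that depend on it are given with and without it.

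The 2 levels of the choice, in hepatopancreas and in muscle, removed very different numbers of genes. A mean of 5 to 100 TPM in the hepatopancreas was reached by 3440 genes, and 3316 of them were also below the ratio limit. Of these 3316 genes, 84 (2.53%) were at 0 in all 6 muscle libraries, whereas the share at 0 in muscle was 42.5% over all gene models (9262 of 21773). Most of the genes at 0 in muscle were hardly measured in the hepatopancreas either. In that tissue 4964 of them averaged 0 TPM and 4188 lay above 0 and below 5 TPM, while 10 reached 100 TPM or more.

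**Figure D1:**
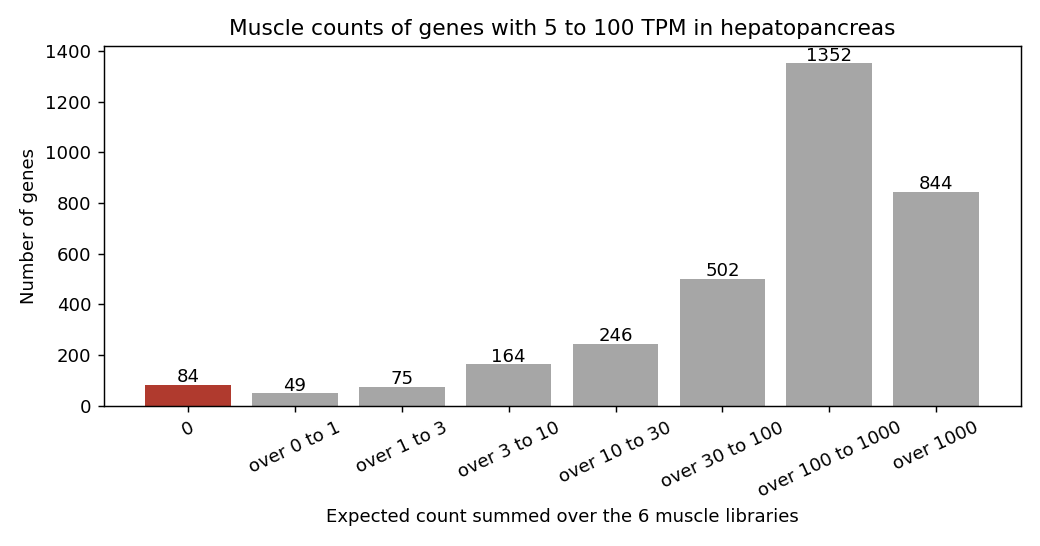
Number of genes (vertical axis) by their expected count summed over the 6 muscle libraries (horizontal axis), for the 3316 genes that met the hepatopancreas limits. The red bar holds the 84 genes at 0, and the grey bars the genes with muscle counts, of which 844 had more than 1000 counts.

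The remaining 3232 genes met the same hepatopancreas limits and had muscle counts, and they serve as the comparison below. The bar chart of summed muscle counts showed no gap between both sets of genes. Just beyond 0, 49 genes had up to 1 count over the 6 muscle libraries and 75 had more than 1 and up to 3. Among the 85 genes with more than 0 and up to 2 counts, 37 had them in P. fallax animal 3 alone. At the other limits, the lowest means among the chosen genes were 5.13 TPM in a pair of genes, and the nearest genes outside, also at 0 in muscle, had 4.98 and 4.74 TPM. At the upper limit, the chosen genes reached 95.0 and 88.0 TPM, and the nearest genes outside had 108 and 130.1 TPM. The highest value was 9.99 and 9.97 times the lowest in the chosen genes nearest to the ratio limit, against 16.3 and 20.4 times in those just beyond it. A further 16 genes were kept out by the ratio limit alone, 5 of them because they were at 0 TPM in a hepatopancreas library.

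In the hepatopancreas the 84 genes together made up a small part of the transcripts. Their summed level was 2394 TPM in animal 2, 1600.3 TPM in animal 6 and 1473 TPM in animal 7, which is 0.239%, 0.160% and 0.147% of all TPM. Single genes ranged from 1.55 to 152 TPM in animal 2 (median 19.3), from 1.17 to 130.2 TPM in animal 6 (median 13.2) and from 1.14 to 93.1 TPM in animal 7 (median 11.7). Animal 2 thus had the highest sum and the highest median, and the ranges of the 3 animals overlapped widely. Averaged over the animals, the median gene had 15.8 TPM (range 5.13 to 95.0), against 13.2 TPM for the median comparison gene.

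**Figure D2:**
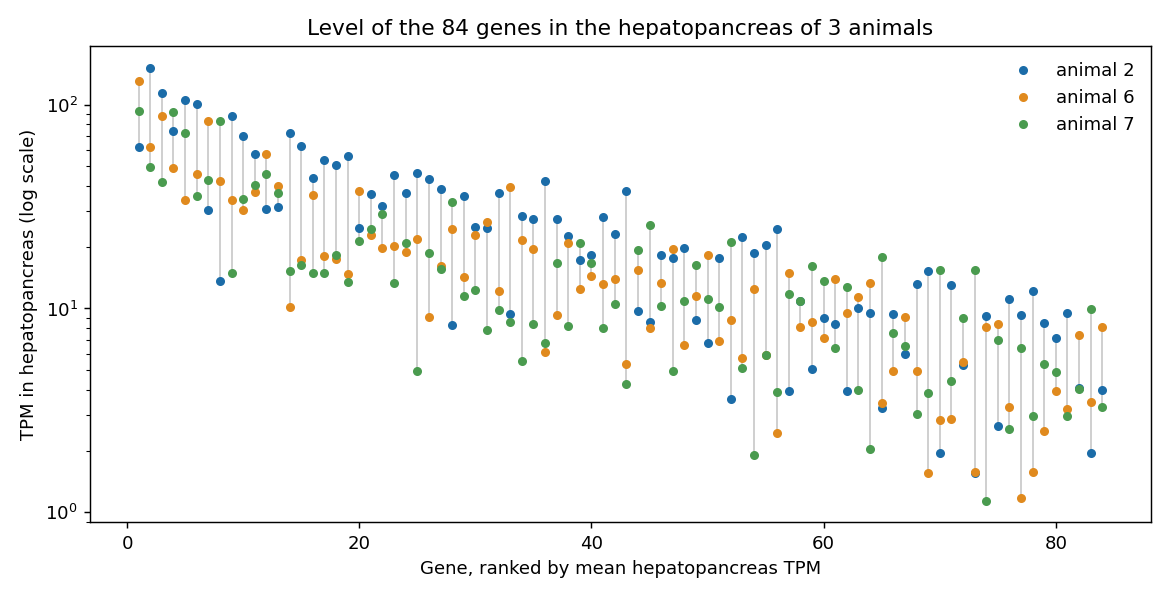
TPM in the hepatopancreas (vertical axis, log scale) of each of the 84 genes, ranked by mean TPM (horizontal axis), with 1 point per animal and a grey line from the lowest to the highest animal. Values lie between 1.14 and 152 TPM, and animal 2 (blue) is the uppermost point for 51 genes.

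The counts behind these levels differed with depth. The median count per gene was 731 in animal 2, 128 in animal 6 and 59 in animal 7, and the lowest count of any gene was 11.5, 3 and 2 in these animals. All 84 genes had counts in all 3 animals, as the ratio limit required. A level of at least 5 TPM in every animal was reached by 56 of the 84 genes, and 13 of the 84 had under 10 counts in at least 1 hepatopancreas library. Values of these genes in animals 6 and 7 are the least precise.

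How low the genes lay in muscle can only be stated as a limit, because all 6 values were 0 for every gene. A count of 0 allows up to 3 counts. Over the 6 muscle libraries together, 3 counts stand for a median of 0.0704 TPM per gene, from 0.0137 TPM in the longest gene to 4.14 TPM in the shortest. Within a single library the median limit was 0.406, 0.252 and 0.837 TPM in the muscle of P. virginalis animals 2, 6 and 7, and 0.454, 0.479 and 0.437 TPM in that of P. fallax animals 1, 3 and 4. The limits were thus several times wider for a single animal than for all muscle libraries, and widest in P. virginalis animal 7, the shallowest library. These limits cover counting error only. The intervals for shares below treat genes as independent draws and do not cover differences between animals or libraries.

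Set against these limits, the mean hepatopancreas level was at least 192-fold higher than the muscle level for the median gene. The lowest bound was 6.53-fold and the highest 1885-fold. The bound was at least 10-fold for 82 of the 84 genes, at least 100-fold for 54 and at least 1000-fold for 6. These numbers follow from the mean hepatopancreas level, which was used in the choice, and from a limit set by gene length and library scaling. The error of the hepatopancreas mean is not part of the bound. No share over other gene models is given beside these counts, so they describe the chosen genes only. TPM depend on what the most abundant genes of a library take. After the 10 most abundant genes of each library were left out and TPM were rescaled, the median bound was 49.5-fold over the 114 genes that then met the rule. On the deposited TPM, it was 334-fold over 147 genes without P. fallax animal 3. By the choice itself the hepatopancreas lay above all muscle libraries in all 84 genes, and this held for 3925 of the 16830 genes with a count in any library (23.3%). The intervals of TPM deposited with the values lay higher in every hepatopancreas library than in any muscle library, without overlap, for 67 of the 84 genes and for 1624 of the 16830 genes with a count (9.65%). In bulk tissue, fewer cells of a type that expresses a gene and less RNA per cell cannot be told apart.

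**Figure D3:**
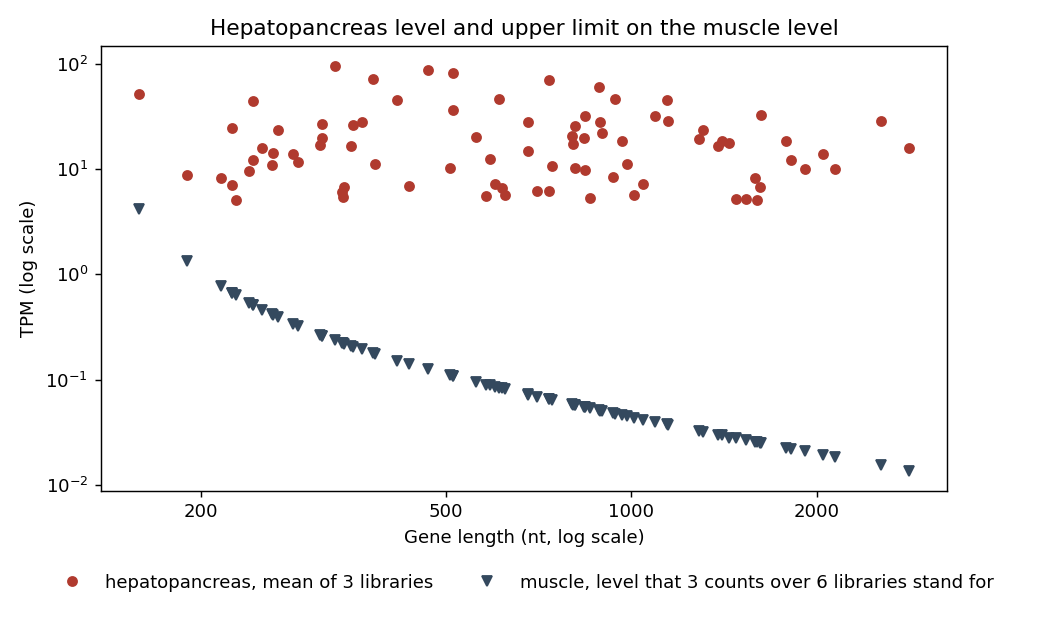
Mean hepatopancreas TPM of the 84 genes (red points) and the muscle TPM that 3 counts over 6 libraries stand for (dark triangles), on log scales, against gene length in nucleotides. The muscle limit falls from 4.14 TPM at 159 nt to 0.0137 TPM at 2820 nt, while the hepatopancreas levels lie between 5.13 and 95.0 TPM.

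The gene with the highest bound was maker-scaffold38023-snap-gene-0.52, a model of 2539 nt. It had 50.6, 17.5 and 18.3 TPM in the hepatopancreas of animals 2, 6 and 7 (28.8 ± 18.9 TPM, SD, n = 3), from 10355, 707 and 549 counts. Its muscle limit was 0.0153 TPM, so that it was at least 1885-fold higher in the hepatopancreas. Next came maker-scaffold104277-snap-gene-0.9, of 1626 nt. Its hepatopancreas levels were 72.5, 10.2 and 15.2 TPM (32.6 ± 34.6 TPM, SD, n = 3), and its bound was 1308-fold. Both genes were highest in animal 2, and by mean hepatopancreas level they ranked 18 and 14 among the 84.

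The share of silent genes differed with gene length. The 84 models had a median length of 692.5 nt (range 159 to 2820), against 1106 nt in the comparison genes, 546 nt over all models and 372 nt over all models at 0 in muscle. In the shortest length quintile of the 3316 genes 4.52% were at 0 in muscle (30 of 664), in the next quintiles 3.62%, 2.11% and 2.11%, and in the longest 0.302% (2 of 663). Without P. fallax animal 3 the share was 5.42% in the shortest and 1.66% in the longest quintile. At a given TPM a shorter model yields fewer counts, so this order moves with the sensitivity of the measurement, and what it owes to that was not tested. By hepatopancreas level, the share at 0 was 2.14% between 5 and 10 TPM, 2.98% between 10 and 20 TPM, 3.01% between 20 and 50 TPM and 1.82% between 50 and 100 TPM, and the exact 95% binomial intervals of these 4 shares overlapped. These shares were, without P. fallax animal 3, 2.77%, 4.42%, 6.41% and 5.97%, and the interval of the lowest level (1.94 to 3.84%) then lay below that between 20 and 50 TPM (4.78 to 8.39%).

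Whether a muscle library repeats the silence of the others can be read from a library that was not used in the choice. The genes were chosen again from the 3 hepatopancreas libraries and 5 muscle libraries, and the remaining library was then read. In each of the 3 P. virginalis muscle libraries, 84 of 91 genes were again at 0 (92.3%, exact 95% binomial interval over genes 84.8 to 96.9%). Among all gene models at 0 in the other 5 muscle libraries the share was 96.7%, 97.1% and 96.9% for animals 2, 6 and 7. The share among the chosen genes was thus somewhat lower than among gene models in general, most of which had less than 5 TPM in the hepatopancreas. The interval of the chosen genes included the share over all gene models for animal 2, and for animals 6 and 7 that share lay just above its upper end. Of gene models above 0 and below 5 TPM in the hepatopancreas, 94.1%, 94.8% and 94.8% were at 0. These 3 shares lay within the interval of the chosen genes. The 7 genes with counts in each of these libraries had few, with a median of 1 count and at most 4.69.

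In P. fallax the libraries differed. For animal 1, 84 of 95 genes were at 0 (88.4%, over all models 95.6%), and for animal 4, 84 of 94 (89.4%, over all models 94.8%). For animal 3 it was 84 of 147 genes (57.1%, interval 48.7 to 65.3%), although 96.6% of all gene models at 0 elsewhere were at 0 there as well. Among gene models above 0 and below 5 TPM in the hepatopancreas, 92.0%, 95.6% and 90.5% were at 0 in animals 1, 3 and 4. The share in animal 3 among the chosen genes was the lowest of all muscle libraries. Every such share counts the same 84 genes at 0 and differs only in the number chosen. The intervals over genes do not compare libraries. The 63 genes with counts in animal 3 alone had between 0.83 and 67 counts each, with a median of 2, and 22 of them had 1 count or less. Their median level in that library was 0.828% of their own hepatopancreas level. For the 184 genes high in the hepatopancreas, including those at 0 in this library, the median was 0.393%. The 63 genes were picked for having counts there, so the medians are not directly comparable. What brought these counts into the library was not tested.

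**Figure D4:**
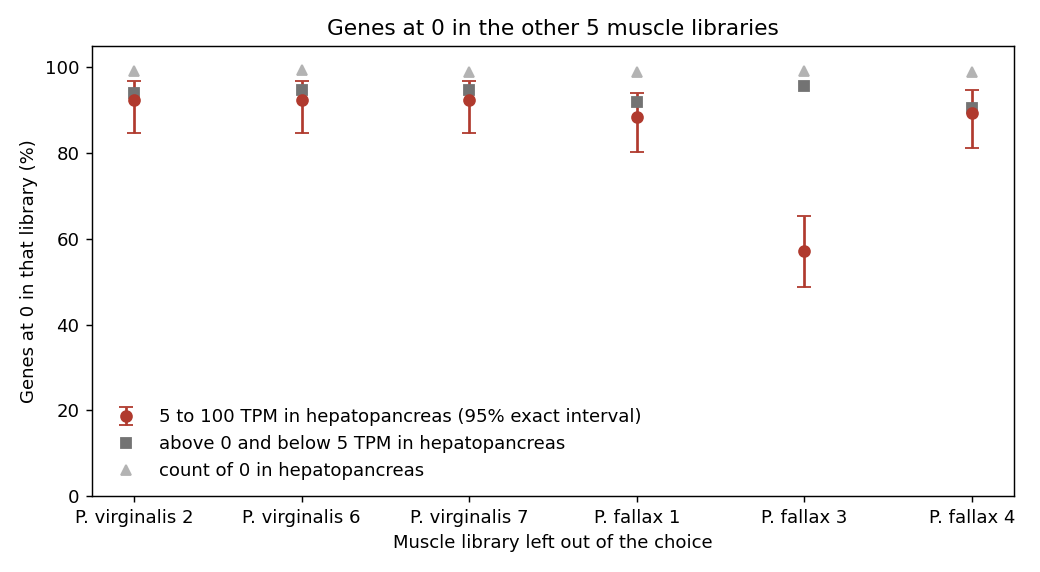
Share of genes at 0 in a muscle library (vertical axis, %) among genes at 0 in the other 5, for each library left out in turn (horizontal axis). Red circles, with exact 95% binomial intervals over genes, are genes of 5 to 100 TPM in the hepatopancreas, dark squares those above 0 and below 5 TPM and light triangles those with no hepatopancreas count. The red share is 57.1% in P. fallax animal 3 and between 88.4% and 92.3% in the other libraries.

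Without P. fallax animal 3 the number of genes was 147 instead of 84, or 4.43% of the 3316 genes. The 63 additional genes had a median of 32.3 TPM in the hepatopancreas and a median length of 1214 nt, above both medians of the 84. A level of 1 TPM gave a median of 12.7 counts for these genes in the library of animal 3, and 6.27 counts for the 84 genes. The additional genes thus yielded more counts per TPM than the genes that remained at 0. With animal 3 left out altogether, the shares at 0 in a library not used lay between 87.0% and 94.8% for the other 5 muscle libraries. No share over other gene models was computed for this setting, so these shares describe the chosen genes only.

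The species can also be set against each other as a whole. Genes chosen from P. virginalis alone numbered 201, and 84 of them (41.8%, interval 34.9 to 48.9%) were at 0 in all 3 P. fallax libraries, against 84.2% of all models. Among models above 0 and below 5 TPM in the hepatopancreas it was 74.9%. Read singly, P. fallax animals 1, 3 and 4 had 84.1%, 55.2% and 83.1% of the 201 genes at 0, against 93.2%, 94.2% and 91.8% of all models. Without P. fallax animal 3 it was 147 of 201 (73.1%). Genes chosen with the 3 P. fallax muscle libraries numbered 125, of which 84 (67.2%, interval 58.2 to 75.3%) were at 0 in the muscle of all 3 P. virginalis animals, against 88.9% of all models. For models above 0 and below 5 TPM in the hepatopancreas the share was 81.4%. Here the single animals 2, 6 and 7 were alike, with 80.8%, 80.8% and 81.6% of the 125 genes at 0, against 95%, 95.5% and 95.1% of all models. The share over all 3 was 67.7% (147 of 217) without P. fallax animal 3. The shares without that library asked for 0 in 2 P. fallax libraries and in 3 P. virginalis libraries, and both count the same 147 genes. Their intervals over genes (66.4 to 79.1% and 61.1 to 73.9%) overlapped, which does not compare the species. No share over other gene models is given for them.

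The hepatopancreas side of the rule was read in the same way, from 2 animals and the 6 muscle libraries, and then in the remaining animal. Of 85 genes chosen without animal 2, 60 had between 5 and 100 TPM in it (70.6%, against 86.6% of the genes chosen in the same way without regard to muscle). Without animal 6 it was 64 of 93 (68.8%, against 77.9%), and without animal 7 it was 61 of 93 (65.6%, against 83.2%). In all 3 animals the share within the range was lower among the silent genes. Most of the misses were low values. Below 5 TPM but above 0 were 19 genes in animal 2, 27 in animal 6 and 28 in animal 7, and at 0 were 0, 1 and 3 genes. The genes chosen without animal 7 had a median of 8.93 TPM in it, against 14.1 TPM for their mean in the other animals. For animal 6 these medians were 11.4 and 14.2 TPM. In animal 2 the median was higher, with 18.7 TPM, against 13.8 TPM in the animals used.

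The spread between the animals was wide in these genes. Over the 3 animals, the median coefficient of variation of TPM was 55.8% (range 11.9 to 130%), against 33.6% in the comparison genes. The highest animal had 3.18 times the level of the lowest for the median gene. The medians also differed where counts were high. Over genes with at least 100 counts in every hepatopancreas library the median was 54.3% in 30 of the 84 genes and 31.2% in 1971 comparison genes. Between the lower and the upper quartile of the lengths of the 84 genes it was 57.6% in 42 genes and 33.5% in 1238 comparison genes. Over the 208 genes with up to 3 muscle counts, which include the 84, the median was 55.2%. With the genes chosen anew, the median over the remaining animals was 39.1% without animal 2, 66.2% without animal 6 and 55.8% without animal 7. These medians rest on fewer animals, and none was computed for comparison genes. The ratio limit of the rule caps the values of all these sets.

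The spread had a direction. The highest level was in animal 2 for 51 of the 84 genes (60.7%), in animal 6 for 17 (20.2%) and in animal 7 for 16 (19.0%). Among the comparison genes it was in animal 2 for 42.5%, in animal 6 for 17.2% and in animal 7 for 40.4%. Animal 2 thus led in a larger share of the silent genes and animal 7 in a smaller one. The lowest level was in animal 7 for 37 of the 84 genes (44.0%), against 24.1% of the comparison genes. The order of animals 2, 6 and 7 from high to low was the most frequent, with 28 genes (33.3%, against 18.3%). The order 7, 6 and 2 was found in 12 genes (14.3%, against 25.1%).

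**Figure D5:**
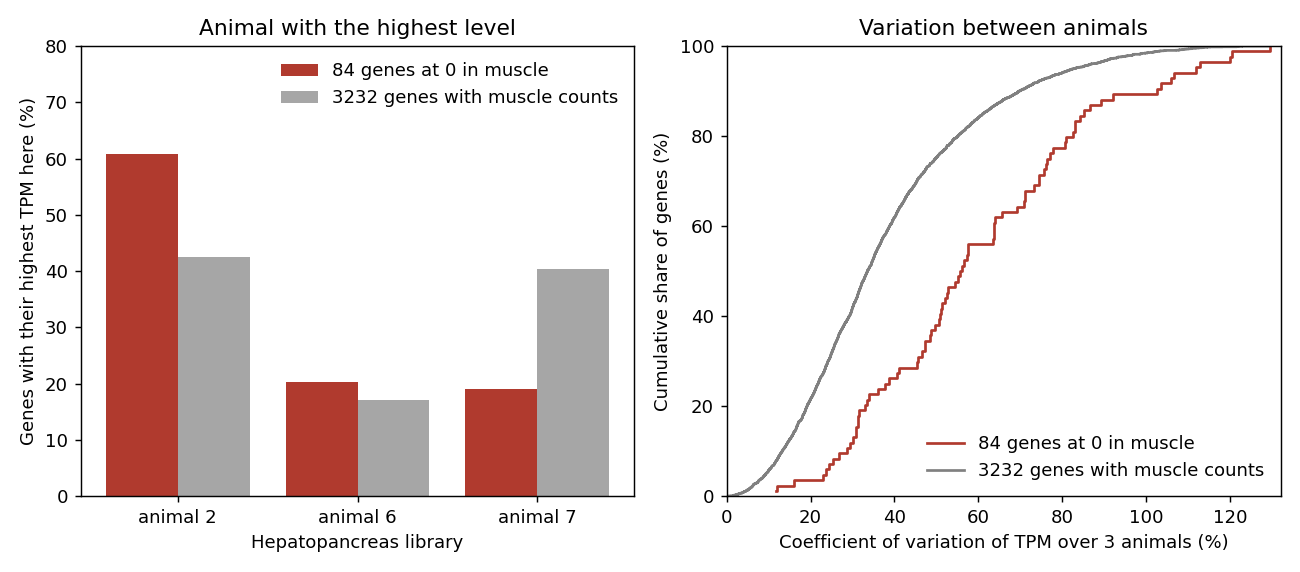
Left, share of genes with their highest hepatopancreas TPM in each animal (vertical axis, %), for the 84 genes (red) and the 3232 comparison genes (grey). Right, cumulative share of genes (vertical axis, %) by its coefficient of variation between the animals (TPM, horizontal axis, %). Animal 2 is highest for 60.7% of the 84 genes and 42.5% of the comparison genes, and the median coefficients of variation are 55.8% and 33.6%.

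The hepatopancreas library of animal 2 was also the deepest. Where every hepatopancreas library had at least 100 counts, animal 2 was highest for 19 of 30 of the silent genes (63.3%) and for 33.9% of the comparison genes (669 of 1971). Without P. fallax animal 3 in the choice, animal 2 was highest for 95 of 147 genes (64.6%) and animal 7 lowest for 55 (37.4%). The 147 genes include the 84, and no comparison share was computed for this choice. The median log2 ratio of animal 7 to the mean of animals 2 and 6 was -0.58 in the 84 genes and 0.08 in the comparison genes. Between animals 2 and 6, which share a read length, the median log2 ratio was 0.54 in the 84 genes and 0.17 in the comparison genes. Each animal is a single library, so differences between animals, between their libraries and, for animal 7, between read lengths cannot be told apart.

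Single genes went against the common order. The gene snap-scaffold80579-processed-gene-0.0 had 15.5 TPM in animal 7, against 1.55 and 1.58 TPM in animals 2 and 6 (log2 ratio 3.31), from 103, 71.7 and 14.4 counts in these libraries. For snap_masked-scaffold144608-processed-gene-0.0 it was 15.5 TPM in animal 7, against 1.96 and 2.85 TPM (log2 ratio 2.69). Its level rested on 31.6, 30 and 8.31 counts in animals 7, 2 and 6. Both genes were several times higher in animal 7 than in either other animal. In the opposite direction, snap_masked-scaffold214111-processed-gene-0.4 had 1.91 TPM in animal 7, against 18.7 and 12.4 TPM in animals 2 and 6 (log2 ratio -3.03), but its level in animal 7 rested on 2.02 counts. The level of maker-scaffold153640-exonerate_est2genome-gene-0.0 was 1.14 TPM in animal 7, against 9.15 and 8.14 TPM (log2 ratio -2.92), from 8.02 counts in animal 7. These low values carry a wide counting error.

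Between animals 2 and 6 the widest difference was that of maker-scaffold11129-snap-gene-0.56, with 24.4 TPM in animal 2 against 2.45 TPM in animal 6 (log2 ratio 3.32) and 3.88 TPM in animal 7. For maker-scaffold6302-exonerate_est2genome-gene-0.0 the levels were 15.3 TPM in animal 2 against 1.55 TPM in animal 6 (log2 ratio 3.30), from 355 and 6.95 counts. Both were low in animal 7 as well, so animal 2 stood alone. Lower in animal 2 was maker-scaffold40218-snap-gene-0.23, with 9.42 TPM against 39.5 TPM in animal 6 (log2 ratio -2.07) and 8.55 TPM in animal 7. The gene snap-scaffold20181-processed-gene-0.11 had 3.93 TPM in animal 2 against 15.0 TPM in animal 6 (log2 ratio -1.93) and 11.8 TPM in animal 7. The first of these was high in animal 6 alone, while the second was low in animal 2 alone.

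The identifiers show how each gene model was made. Predictions of the program SNAP refined by the MAKER pipeline with evidence made up 43 of the 84 models (51.2%), against 41.9% of the comparison genes and 26.0% of all models. Models combined by EVidenceModeler were rare, with 4 of 84 (4.76%), against 24.0% of the comparison genes and 9.68% of all models. Ab initio predictions of SNAP made up 15 models (17.9%, against 18.3% of the comparison genes and 28.1% of all models). Those on masked sequence made up 16 models (19.0%, against 10.9% of the comparison genes and 23.4% of all models). Their share was thus above that of the comparison genes and below that of all models. A further 5 models came from transcript alignments (5.95%, against 4.24% of the comparison genes and 11.97% of all models). The remaining model came from a protein alignment. Of the 84 models, 83 had a single transcript (98.8%, against 98.3% of the comparison genes). Expected counts that were not whole, as arise when reads are divided between similar models, occurred in the hepatopancreas of 28 of the 84 genes (33.3%), against 28.0% of the comparison genes. For these genes the level depends on how reads were divided.

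Some of the silent genes lay near each other. The 84 genes were spread over 75 scaffolds, and 16 of them (19.0%) shared a scaffold with another of the 84, on 7 scaffolds. Among the comparison genes 42 of 3232 (1.30%) had one of the 84 on their scaffold. The other models on the scaffold of each gene were counted gene by gene, so that a pair within a set counts from both sides. Of those of the 84 genes, 11.8% (22 of 186, from 11 distinct pairs) were themselves among the 84. Of those of the comparison genes, 0.729% (52 of 7137) were among the 84. Counted in this way, the other model reached 5 TPM in the hepatopancreas in 54.8% of cases for the 84 genes and in 32.7% for the comparison genes. Both shares include models of the 84 and of the comparison genes, which reach 5 TPM by the rule. On 6 of the 7 shared scaffolds all of the chosen genes were highest in the same animal, the exception being scaffold14316. Counted as pairs, 9 of 11 pairs of the 84 genes on the same scaffold were highest in the same animal (81.8%), against 43.8% of their pairs on different scaffolds (1522 of 3475). Without P. fallax animal 3, 33 of 147 genes (22.4%), which include the 84, shared a scaffold with another. No share over other genes was computed for this choice. Models on 1 scaffold can be fragments of the same gene, which the files do not resolve, so such genes may not be separate.

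Among the shared scaffolds, 2 held 3 of the 84 genes each. Scaffold38023 carried 4 models in all. In animals 2, 6 and 7 its 3 silent genes had 42.3, 6.08 and 6.75 TPM, 50.6, 17.5 and 18.3 TPM, and 7.17, 3.92 and 4.90 TPM. All of them were highest in animal 2 and lowest in animal 6. Scaffold14316 carried 9 models. In the same animals its 3 silent genes had 8.32, 24.5 and 33.4 TPM, 13.7, 42.3 and 83.6 TPM, and 5.99, 9.11 and 6.56 TPM. These genes were lowest in animal 2, unlike most of the 84, and the last of them was highest in animal 6 rather than in animal 7.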

How the data were processed

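Total RNA of 9 tissue samples was sequenced after library preparation by the authors. For every library they deposited the gene table of RSEM. Expected counts were deposited without normalization, as the fragments RSEM estimated for each gene. TPM were computed by the authors with RSEM from the expected count and the effective length, and FPKM were deposited alongside. A posterior mean TPM and interval bounds of TPM were also deposited. The submitters' processing notes list HISAT2 2.0.4 and RSEM 1.2.30. Trimming, strandedness, the level of the intervals and the annotation release were not given in the sources used here.

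Species, tissue and animal were taken from the sample titles. Genes were chosen from TPM and expected counts as described above. The code of this step was run on simulated counts with planted genes, which were set to 0 in muscle and lay far from the TPM limits. Genes planted above the ratio limit also lay above the upper TPM limit, so the ratio limit was not checked on its own. The simulation does not show how well the rule performs near its limits. The genes and settings were chosen with earlier results of these data known. No p-value is given, since every library entered the choice and genes are not replicates. Limits for a count of 0 used 3 counts, converted to TPM by effective length and library scaling. These limits cover counting error only, and molecular identifiers were not used, so reads can be copies of 1 molecule. Binomial intervals are exact (95%, Clopper-Pearson) and treat genes as independent draws. They cover neither differences between animals and libraries nor the grouping of genes on scaffolds. Named genes were the 2 with the highest bound of hepatopancreas over muscle, and the 2 highest and 2 lowest log2 ratios of TPM between animal 7 and the mean of animals 2 and 6, and between animals 2 and 6. Alternatives concerned the unit, the scaling, each limit, depth, species and single libraries. Python 3.11.15, NumPy 2.4.6, pandas 2.3.3, SciPy 1.17.1 and matplotlib 3.10.9 were used. Total expected counts per library are given above, and no pair of libraries within a group agreed within sampling noise.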

Additional observations from a re-analysis of the deposited data

How the results depend on the processing

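The 84 genes became 157 with a mean of at least 2 TPM, 208 with up to 3 muscle counts allowed, 201 with only P. virginalis muscle at 0, and between 85 and 147 with single libraries left out, the highest without P. fallax animal 3. Their median level of 15.8 TPM was 5.45 TPM at a lower limit of 2 TPM and 20.5 TPM at 10 TPM, and 13.8 to 19.8 TPM with single libraries left out. The median bound of 192-fold was 49.5-fold without the 10 most abundant genes, 62.0-fold and 357-fold at lower limits of 2 and 10 TPM, 248-fold with up to 3 muscle counts allowed, 575-fold with a limit of 1 count, and between 135-fold and 334-fold with single libraries left out. With single libraries left out, the median coefficient of variation of 55.8% lay between 39.1% (without hepatopancreas of animal 2) and 66.2% (without that of animal 6). Both of these are taken over 2 animals and genes chosen anew, so they are not directly comparable with 55.8%. The median length of 692.5 nt lay between 616 and 858 nt with single libraries left out. The median length was 513 nt at a lower limit of 2 TPM. When up to 3 counts were allowed both in the choice and in the libraries not used, the share with up to 3 counts there was 99.1%, 98.7% and 97.0% in P. virginalis animals 2, 6 and 7, 94.5% and 87.4% in P. fallax animals 1 and 3, 64% in the 3 P. fallax libraries together and 82.8% in the 3 P. virginalis muscle libraries together. Without animal 3, an alternative chosen after seeing the data like the others that leave it out of the shares, the share at 0 in P. fallax was 73.1%. Of the 84 genes, 76 were also chosen with FPKM (84 genes), 76 without the 10 most abundant genes (114 genes) and 79 with hepatopancreas counts thinned to the shallowest library (83 genes). The causes of these differences were not tested, except that fewer muscle libraries or wider limits let in more genes by construction. No paired analysis was possible because no result comes from a test, every library having entered the choice of the genes. Hepatopancreas and muscle of P. virginalis come from the same animals, and no block for the animal was fitted.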

Other observations

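Among the genes that met the hepatopancreas limits, 41 were at 0 in the muscle of all 3 P. fallax animals but had counts in P. virginalis muscle. Only 7 of them had more than 10 counts in all, and 10 had counts in all 3 P. virginalis animals. One gene, named after its values were seen, stood out. The model maker-scaffold33921-exonerate_protein2genome-gene-0.22, of 213 nt, had 193, 909 and 575 TPM in the muscle of P. virginalis animals 2, 6 and 7, from 124, 1018 and 171 counts, and 0 counts in P. fallax animals 1, 3 and 4. A total of 3 counts over the P. fallax libraries would stand for 1.83 TPM, so the P. virginalis mean of 559 TPM was at least 306-fold higher. In the hepatopancreas of P. virginalis animals 2, 6 and 7 the gene had 5.66, 46.4 and 41.7 TPM. Reads of P. fallax were assigned to P. virginalis models, and what sequence divergence or the short model contributes to the 0 was not tested. In the other direction, 117 genes were at 0 in P. virginalis muscle and had counts in P. fallax muscle, 84 of them in a single library and 6 in all 3. This number was 54 without P. fallax animal 3, which stood apart. The number of genes at 0 in P. fallax and with counts in P. virginalis was then 70. Leaving out a P. fallax library can only lower the first number and raise the second, and it sets 2 P. fallax libraries against 3 of P. virginalis. The order of these numbers therefore does not compare the species.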
